A study of Mus musculus with 4 samples.

Results

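The comparison set MLg cells that received transforming growth factor beta 1 (TGFB1) against MLg cells that did not, both transfected with a control antagomiR, and asked which transcripts change within hours of the cytokine while miR-9 is not blocked. MLg is an established fibroblast line from mouse lung, and the control antagomiR is a modified antisense oligonucleotide that stands in for one that blocks miR-9-5p. The members were 2 of the 4 total RNA libraries of the series, taken by their titles: Tgfb (control antagomiR, recombinant human TGFB1) and Ctr (control antagomiR, no TGFB1), with 1 library each. The remaining pair, Tgfb_Mir9_LOF and Mir9_LOF, had the miR-9 antagomiR in place of the control antagomiR, with and without TGFB1, and served here only as a second pair of libraries for the same contrast. All 4 conditions shared the cell line and the lipid transfection. The submitters' protocol states 5 ng/ml TGFB1 for 4 h before harvest at 24 h, with 60 nM antagomiR, whereas their design text states 10 nM and 48 h, and the difference was not settled here. Separate cultures are not stated for the libraries, and with 1 library per condition no difference below has a replicate check and no p-value is given.

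TGF-beta ligands are stored in the matrix as latent complexes and, once released, bring together type II and type I receptor kinases at the cell surface. The type I receptor phosphorylates SMAD2 and SMAD3, which join SMAD4, enter the nucleus and bind DNA with partner factors. In lung fibroblasts the pathway is known for driving collagen and fibronectin production, contractile genes and the change to myofibroblasts, and for switching on its own inhibitors. The related bone morphogenetic protein (BMP) branch acts through SMAD1 and SMAD5 and is read out by the ID genes, which encode inhibitors of helix-loop-helix transcription factors.

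Reads had been counted per RefSeq transcript, and the deposited counts summed to 21805102 in the Tgfb library and 27413486 in the Ctr library. Levels are given as RPKM, in which reads are divided by transcript length and library total. Ribosomal Rn45s, Mir6236 and Lars2 (the 3 heavy transcripts) took 16.4% of the counts in the Tgfb library and 19.2% in the Ctr library. Of 12767 symbols in the table, 9527 had a mean of 1 RPKM or more over the Tgfb and Ctr libraries and were compared, 9126 of them with a protein-coding transcript. The cells carried fibroblast transcripts: 16 of 19 fibroblast markers were in the table, with a summed level of 3928 RPKM in the Tgfb library and 3205 RPKM in the Ctr library. The fibroblast markers Thy1, Tcf21 and Meox2 were not listed, and Fap had only 0.171 RPKM in the Tgfb library and 0.150 RPKM in the Ctr library. Of 19 epithelial markers 3 were listed, with 6.51 RPKM in the Tgfb library and 6.82 RPKM in the Ctr library, nearly all of it Krt7. Of 16 leukocyte markers 4 were listed, with 5.35 RPKM in the Tgfb library and 6.97 RPKM in the Ctr library, and of 12 endothelial markers only Kdr, with 0.0458 RPKM in the Tgfb library and 0.0729 RPKM in the Ctr library. Epcam, Cdh1, Ptprc and Pecam1 were not listed. Of 11 smooth muscle and mesothelial markers 7 were listed. The highest of these in the Ctr library was the mesothelial marker Msln, with 30.2 RPKM in the Tgfb library and 35.6 RPKM in the Ctr library. The table holds only transcripts with 21 or more reads over the 4 libraries.

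After TGFB1, 255 genes rose and 278 fell, where a gene is said to have risen or fallen if its log2 ratio of (RPKM + 1), Tgfb over Ctr, was 0.58 or more or -0.58 or less. These were 2.68% and 2.92% of the genes compared. The limit is the one used by the study and stands for a ratio of 1.49. The median over all genes was -0.01, with quartiles of -0.16 and 0.14, so most transcripts moved little. Of the genes that rose, 209 had protein-coding transcripts and 77 reached a log2 of 1 or more. Of those that fell, 248 had protein-coding transcripts and 52 reached -1 or less. The 95% counting interval of the ratio, an exact binomial interval from the reads of the 2 libraries that covers counting error only, lay beyond 1 for 244 of the 255 and for 263 of the 278. The genes were called from these same reads, so these counts are no check of the calls. Closest to the limit lay Col1a1 (0.58) just inside the risen genes and Ndrg4 (0.58, below the limit in the next decimal) just outside, with Efna5 and Slc1a6 likewise at -0.58 on either side of the lower limit. Genes that rose held 4.79% of the protein-coding RPKM in the Tgfb library and 2.48% in the Ctr library. Genes that fell held 3.06% in the Tgfb library and 5.29% in the Ctr library. The direction of these differences follows from how the genes were picked. In bulk RNA, fewer cells that express a gene and less of its RNA per cell cannot be told apart.

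**Figure D1:**
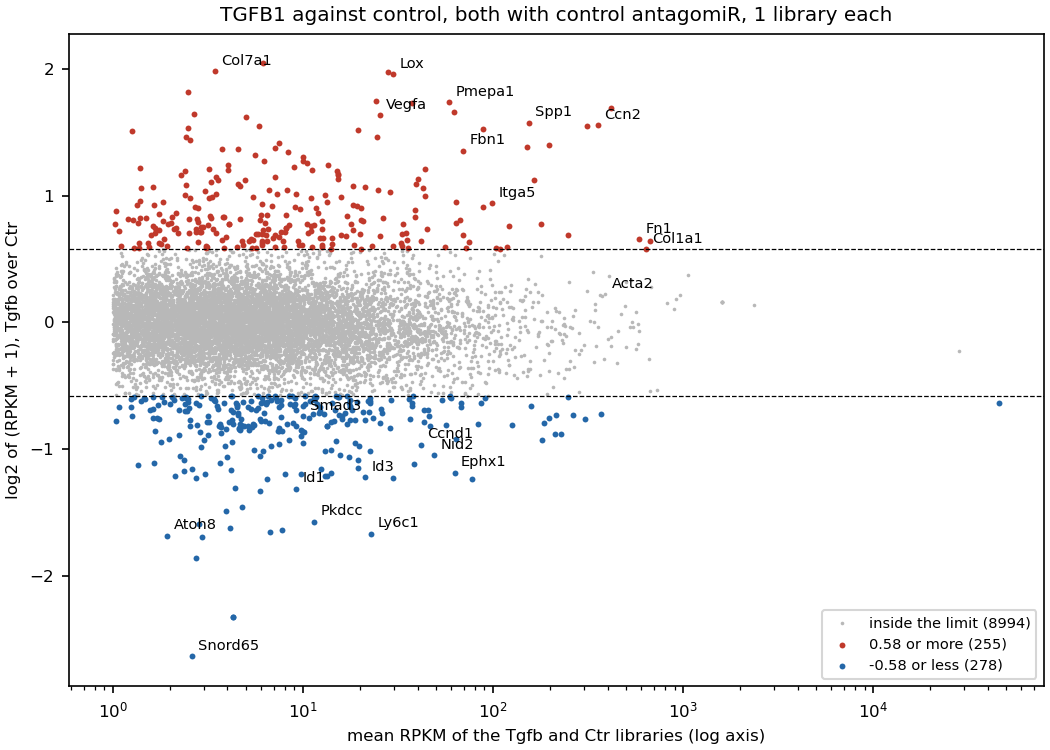
Change of each of the 9527 genes (y axis, log2 of (RPKM + 1), Tgfb over Ctr) against its mean RPKM in the Tgfb and Ctr libraries (x axis, log scale). Red points are the 255 genes at 0.58 or more, blue points the 278 genes at -0.58 or less, grey points lie between the dashed limits, and changed genes are found at all levels, from Atoh8 to Fn1.

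Established targets of the pathway marked the Tgfb library. Ccn2 (mm10 chr10:24595442-24598683), the matricellular factor formerly called connective tissue growth factor, had 534 RPKM in the Tgfb library and 180.4 RPKM in the Ctr library, from 27880 and 11846 reads. That is a ratio of 2.96 (95% counting interval 2.90 to 3.02) and a log2 change of 1.56. Pmepa1 (chr2:173224458-173276731), a membrane protein that binds SMADs and dampens the pathway, had 90.7 RPKM in the Tgfb library and 26.5 RPKM in the Ctr library, a ratio of 3.43 (3.30 to 3.57). Both intervals lay far from 1, and both genes also rose with TGFB1 in the second pair of libraries, with log2 changes of 1.57 and 1.56.

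Of 18 ligands and latency genes compared, 8 rose, 1 fell and 9 stayed inside the limit, with a median log2 change of 0.52 against -0.01 over all genes. Tgfb1 itself had 15.8 RPKM in the Tgfb library and 9.55 RPKM in the Ctr library (log2 0.67), and Tgfb3 had 10.2 RPKM in the Tgfb library and 5.83 RPKM in the Ctr library (log2 0.71). The added cytokine was the human protein, so these are the cells' own mouse transcripts. Inhba, which encodes the activin A subunit, had 6.67 RPKM in the Tgfb library and 2.64 RPKM in the Ctr library (log2 1.07). Among the latent TGF-beta binding proteins, Ltbp2 changed by log2 0.54, and Ltbp1, Ltbp3 and Ltbp4 changed by -0.11, -0.09 and -0.13, all inside the limit. Lrrc32, a cell surface docking protein of latent TGF-beta, and Itgb5, a chain of a latent TGF-beta binding integrin, rose by log2 0.74 and 0.79. The 2 antagonists of activin moved in opposite directions. Fstl3 had 10.7 RPKM in the Tgfb library and 3.50 RPKM in the Ctr library, a ratio of 3.06 (2.57 to 3.65). Fst, follistatin, had 7.34 RPKM in the Tgfb library and 17.6 RPKM in the Ctr library, a ratio of 0.417 (0.372 to 0.466).

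Receptor transcripts had a median of 0.17, below that of the ligand list and above the -0.01 over all genes. Of the 9 compared 0 rose and 1 fell, against 2.68% and 2.92% of all genes, and the list is too short to read these counts. Bmpr2 came closest to rising, at log2 0.57. Tgfbr2, the type II receptor, had 35.1 RPKM in the Tgfb library and 29.1 RPKM in the Ctr library, a log2 change of 0.26 inside the limit. Tgfbr1, the type I receptor, lay under the filter, with 1.20 RPKM in the Tgfb library and 0.605 RPKM in the Ctr library from 150 and 95 reads. The co-receptor Tgfbr3, betaglycan, fell, with 13.6 RPKM in the Tgfb library and 22.6 RPKM in the Ctr library (log2 -0.69). Among 14 SMADs and SMAD partners, Runx1 and Runx2 rose and Smad3 fell. Smad3, the signal transducer, had 7.27 RPKM in the Tgfb library and 12.8 RPKM in the Ctr library, a ratio of 0.568 (0.522 to 0.618). Smad2 and Smad4 stayed inside the limit, at log2 0.15 and 0.13. Runx1, a partner of SMADs on DNA, had 7.17 RPKM in the Tgfb library and 2.75 RPKM in the Ctr library (log2 1.12). The rise of Runx2 (log2 0.59) was lost when its longest transcript stood for the gene (log2 0.56).

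Feedback inhibitors did not move as a block: 2 of 17 rose and 2 fell, with a median of 0.06. Pmepa1 and Skil rose. Skil, a SMAD co-repressor that TGF-beta induces in many cells, had 4.23 RPKM in the Tgfb library and 2.07 RPKM in the Ctr library, a ratio of 2.04 (1.79 to 2.32). Smad7, the inhibitory SMAD, was almost level, with 7.85 RPKM in the Tgfb library and 7.48 RPKM in the Ctr library and an interval of the ratio from 0.951 to 1.16. Smad6, the inhibitory SMAD of the BMP branch, had 2.88 RPKM in the Tgfb library and 5.61 RPKM in the Ctr library (log2 -0.77). The kinase gene Sik1 had 5.24 RPKM in the Tgfb library and 10.3 RPKM in the Ctr library (log2 -0.86).

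Of 26 transcription factor genes listed as driven by SMAD3, 6 rose and 1 fell, with a median of 0.20. Snai1, a repressor of epithelial genes, had 12.5 RPKM in the Tgfb library and 5.72 RPKM in the Ctr library, a ratio of 2.19 (1.87 to 2.57). Bhlhe40, a helix-loop-helix repressor, had 33.6 RPKM in the Tgfb library and 15.7 RPKM in the Ctr library, a ratio of 2.13 (1.99 to 2.28). The annotated ranges of Bhlhe40 and the non-coding 0610040F04Rik, which rose too (log2 0.91), overlap by 306 nt. Reads in any exon shared there cannot be divided between them, because reads were counted without regard to strand. Scx, Lef1 and Foxp1 rose by log2 0.71, 0.71 and 0.67. Immediate early genes showed no common direction: of 24, Egr2 rose (4.01 RPKM in the Tgfb library and 0.814 RPKM in the Ctr library), Dusp1 fell (8.98 RPKM in the Tgfb library and 15.4 RPKM in the Ctr library), and the median was close to 0. Junb, an AP-1 subunit, changed by log2 0.35, inside the limit.

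**Figure D2:**
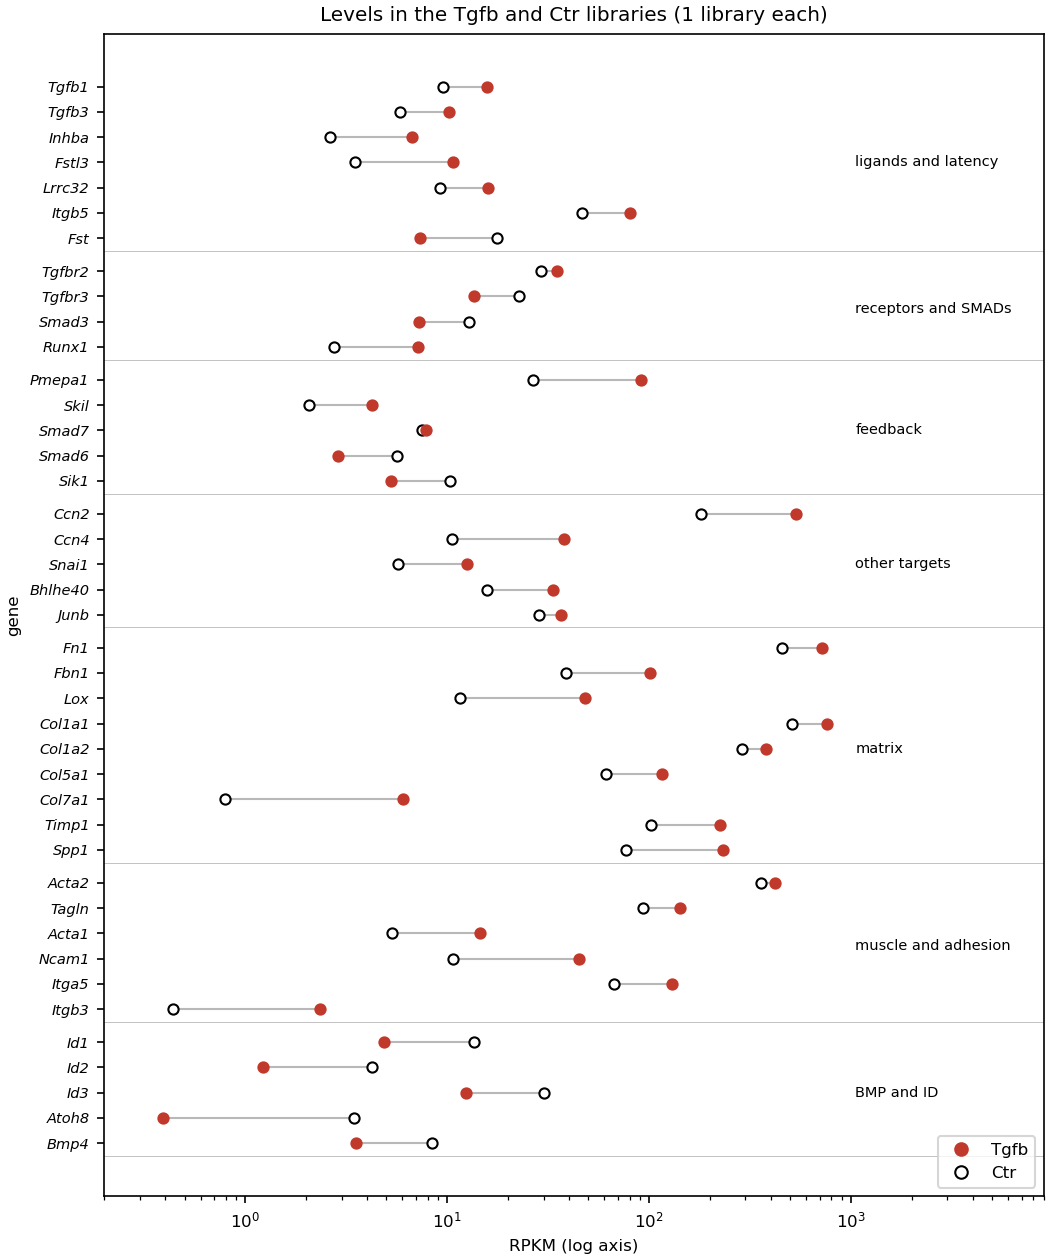
RPKM (x axis, log scale) of genes named in the text, grouped by role down the page, with the Tgfb library as filled red points and the Ctr library as open points, 1 library each. Red points lie right of open points for most targets and matrix genes, such as Ccn2 (534 RPKM in the Tgfb library and 180.4 RPKM in the Ctr library), and left of them for Fst, Tgfbr3, Smad3, Smad6, Sik1 and the genes of the BMP and ID group.

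The BMP side of the family moved down, with the lowest median of the lists plotted. Of 9 members compared 6 fell, and the median was -1.05. The 3 ID genes fell together. Id1 had 4.86 RPKM in the Tgfb library and 13.5 RPKM in the Ctr library, a ratio of 0.359 (0.284 to 0.450). Id2 had 1.23 RPKM in the Tgfb library and 4.23 RPKM in the Ctr library, a ratio of 0.291 (0.194 to 0.425). Id3 had 12.3 RPKM in the Tgfb library and 30.1 RPKM in the Ctr library, a ratio of 0.409 (0.354 to 0.472). The reads behind them were 34 to 255 in the Tgfb library and 147 to 783 in the Ctr library, and each interval lay well below 1. Atoh8, a helix-loop-helix factor induced by BMP signals, had 20 reads in the Tgfb library and 223 reads in the Ctr library (0.390 and 3.46 RPKM), a ratio of 0.113 (0.0676 to 0.178). Bmp4, a ligand of this branch, had 3.52 RPKM in the Tgfb library and 8.38 RPKM in the Ctr library (log2 -1.05). In the second pair of libraries 5 of the 6 genes that fell did so again, and Bmp4 changed by log2 -0.53 there.

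Promoters are shown for Id2 and Id3, which fell together, and for Vegfa, Spsb1, Spp1 and Pdgfa, the 4 genes with the largest increases among the protein-coding genes of 5 RPKM or more that have an entry in the promoter table used. These 4 were chosen after their values were seen, and so were the windows, the first listed in the table for each gene. The sequences are from RefSeq on GRCm38.p6, the assembly of mm10, and run from 250 bases before to 50 bases after an annotated start. Id2 lies at chr12:25096043-25096342 on the minus strand, Id3 at chr4:136143572-136143871 on the plus strand, Vegfa at chr17:46032328-46032627 on the minus strand, Spsb1 at chr4:149954957-149955256 on the minus strand, Spp1 at chr5:104434861-104435160 on the plus strand and Pdgfa at chr5:138994232-138994531 on the minus strand. The annotated range of Pdgfa reaches further upstream than this window, which was not matched to the transcript whose level is given. Capitals mark CAGAC, the box bound by SMAD3 and SMAD4, and GGCGC, a GC-rich SMAD box, each on either strand.
Id2: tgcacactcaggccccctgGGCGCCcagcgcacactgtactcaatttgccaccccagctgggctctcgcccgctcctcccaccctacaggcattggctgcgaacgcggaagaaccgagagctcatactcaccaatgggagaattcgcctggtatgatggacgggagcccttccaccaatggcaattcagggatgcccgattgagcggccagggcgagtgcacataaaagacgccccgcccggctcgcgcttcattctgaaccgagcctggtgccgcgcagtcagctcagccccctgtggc
Id3: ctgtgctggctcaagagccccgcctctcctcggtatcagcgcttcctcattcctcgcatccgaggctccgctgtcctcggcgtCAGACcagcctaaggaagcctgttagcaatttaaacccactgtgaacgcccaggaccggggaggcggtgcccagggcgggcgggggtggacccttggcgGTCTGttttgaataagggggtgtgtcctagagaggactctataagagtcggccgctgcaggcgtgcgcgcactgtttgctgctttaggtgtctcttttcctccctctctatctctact
Vegfa: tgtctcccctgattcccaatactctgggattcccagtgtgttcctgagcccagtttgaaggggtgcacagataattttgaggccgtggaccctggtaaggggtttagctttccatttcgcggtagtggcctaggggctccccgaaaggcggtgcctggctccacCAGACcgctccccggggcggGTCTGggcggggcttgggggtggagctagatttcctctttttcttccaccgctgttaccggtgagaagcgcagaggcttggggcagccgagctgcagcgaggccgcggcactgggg
Spsb1: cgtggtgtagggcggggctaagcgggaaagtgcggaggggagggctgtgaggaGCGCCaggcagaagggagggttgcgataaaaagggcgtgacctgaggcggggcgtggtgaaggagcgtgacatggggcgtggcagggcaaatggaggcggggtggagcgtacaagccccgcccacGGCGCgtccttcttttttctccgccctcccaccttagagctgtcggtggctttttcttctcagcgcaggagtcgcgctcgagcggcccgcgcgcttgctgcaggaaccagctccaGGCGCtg
Spp1: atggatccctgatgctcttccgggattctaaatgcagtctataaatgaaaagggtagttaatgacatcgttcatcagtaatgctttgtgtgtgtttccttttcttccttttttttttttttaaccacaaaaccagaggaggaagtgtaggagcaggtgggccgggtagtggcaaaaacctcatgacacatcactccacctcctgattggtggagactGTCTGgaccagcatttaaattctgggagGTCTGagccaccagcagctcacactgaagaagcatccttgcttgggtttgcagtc
Pdgfa: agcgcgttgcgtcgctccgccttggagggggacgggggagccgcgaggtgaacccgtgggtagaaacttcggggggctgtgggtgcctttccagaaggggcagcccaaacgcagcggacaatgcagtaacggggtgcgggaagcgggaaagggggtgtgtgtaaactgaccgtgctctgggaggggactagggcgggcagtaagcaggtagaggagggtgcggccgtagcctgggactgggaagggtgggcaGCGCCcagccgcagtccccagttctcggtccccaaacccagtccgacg
Id3, Vegfa and Spp1 each held CAGAC 2 times and GGCGC 0 times in these windows. Id2 held GGCGC 2 times, as overlapping matches on the 2 strands, Spsb1 held it 3 times and Pdgfa 1 time, each with no CAGAC. The AP-1 site, TGANTCA, was in none of the 6 windows, and GGAATG, the TEAD site, was in that of Id3, 1 time. Windows were found for 7470 of the 9527 genes. CAGAC was present in 53.7% of 205 windows of genes that rose, in 50.0% of 270 windows of genes that fell, in 46.1% of windows of the genes compared that did neither and in 49.6% of all 32851 windows. GGCGC was present in 59.0% of windows of genes that rose, in 53.0% of those of genes that fell, in 65.9% of those that did neither and in 36.9% of all. TGANTCA was present in 8.29% of windows of genes that rose, 10.4% of those that fell, 4.68% of those that did neither and 7.81% of all. GGAATG was present in 15.1% of windows of genes that rose, 12.6% of those that fell, 11.8% of those that did neither and 14.7% of all. These short motifs occur in many promoters, and a match is a description, not a site.

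Matrix genes rose unevenly. Of 16 collagen chains 7 rose and 0 fell, with a median of 0.29. Col7a1, the chain of anchoring fibrils, changed most, with 6.07 RPKM in the Tgfb library and 0.791 RPKM in the Ctr library, a ratio of 7.67 (6.59 to 8.96). Col5a1, of type V collagen, had 116 RPKM in the Tgfb library and 61.2 RPKM in the Ctr library, a ratio of 1.89 (1.85 to 1.94). The chains of type I collagen moved less. Col1a1 (chr11:94936224-94953042) had 762 RPKM in the Tgfb library and 509 RPKM in the Ctr library, a ratio of 1.50 (1.48 to 1.51). Its log2 change of 0.58 sat on the limit and became 0.53 with library totals that leave out Rn45s, Mir6236 and Lars2. Col1a2 had 380.4 RPKM in the Tgfb library and 289 RPKM in the Ctr library (log2 0.40), inside the limit. Col6a3, Col11a1, Col3a1 and Col18a1 rose by log2 0.81, 0.81, 0.65 and 0.64, whereas Col6a1 and Col6a2, the partners of Col6a3 in type VI collagen, changed by -0.53 and -0.54, inside the limit.

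Of 20 genes for collagen processing 3 rose and 0 fell. Lox, lysyl oxidase, which cross-links collagen and elastin, had 48.0 RPKM in the Tgfb library and 11.6 RPKM in the Ctr library, a ratio of 4.14 (3.90 to 4.40). Loxl2, of the same enzyme family, had 15.5 RPKM in the Tgfb library and 7.83 RPKM in the Ctr library (log2 0.90), and P4ha3, a prolyl hydroxylase subunit, rose by log2 0.93. Of 8 microfibril and elastic fibre genes 1 rose: Fbn1 (chr2:125300594-125506485), fibrillin-1, which also holds latent TGF-beta complexes in the matrix. It had 100.4 RPKM in the Tgfb library and 38.6 RPKM in the Ctr library, a ratio of 2.60 (2.54 to 2.66). Fbln2, at 1036 RPKM in the Tgfb library and 892 RPKM in the Ctr library, was the most abundant microfibril gene and changed by log2 0.22.

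Among 17 matrix glycoproteins 3 rose and 1 fell, but 7 lay above 0 and 10 below, with a median of -0.01. Spp1, osteopontin, had 232 RPKM in the Tgfb library and 77.2 RPKM in the Ctr library, a ratio of 3.01 (2.88 to 3.14). Fn1, fibronectin, had 718 RPKM in the Tgfb library and 455 RPKM in the Ctr library, a ratio of 1.58 (1.56 to 1.59). Postn, periostin, rose at a low level, with 2.04 RPKM in the Tgfb library and 0.722 RPKM in the Ctr library. Nid2, a basement membrane linker, fell, with 31.5 RPKM in the Tgfb library and 66.1 RPKM in the Ctr library, a ratio of 0.477 (0.458 to 0.496). Among 19 proteoglycan and hyaluronan genes 5 rose and 3 fell. Those that rose included Chst11 and Chsy1, enzymes of chondroitin sulphate synthesis (log2 1.17 and 0.71), and the core proteins Cspg4 and Vcan (log2 1.07 and 0.69). Prelp, a leucine-rich proteoglycan, had 4.49 RPKM in the Tgfb library and 11.6 RPKM in the Ctr library (log2 -1.20). Has2, a hyaluronan synthase singled out after its values were seen, lay under the filter with 95 reads in the Tgfb library and 9 in the Ctr library.

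Of 15 metalloproteinases and inhibitors 5 rose and 1 fell. Timp1, an inhibitor of metalloproteinases, had 224 RPKM in the Tgfb library and 102 RPKM in the Ctr library, a ratio of 2.19 (2.08 to 2.31). Timp3 rose less, with 86.1 RPKM in the Tgfb library and 57.0 RPKM in the Ctr library (log2 0.59), and changed by 0.54 with the library totals without the 3 heavy transcripts. Adam12 and Mmp9 rose at lower levels, by log2 1.02 and 1.06, and Adamts5, an aggrecan-cleaving protease, fell by log2 0.71. In the plasminogen system 7 genes were compared, with a median of -0.14. Plau, the urokinase-type activator, had 13.4 RPKM in the Tgfb library and 20.6 RPKM in the Ctr library. The log2 change of Plau, -0.58, was just past the limit and was lost under 4 other scalings (-0.57 to -0.58).

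Contractile genes moved little after the stated 4 h. Of 19 smooth muscle and myofibroblast genes 2 rose and 1 fell, although 17 had changes above 0 and the median was 0.22. Acta2, the smooth muscle actin used as a myofibroblast marker, had 420.1 RPKM in the Tgfb library and 359.8 RPKM in the Ctr library, a ratio of 1.17 (1.15 to 1.19). Tagln, an actin-binding protein, had 142 RPKM in the Tgfb library and 93.7 RPKM in the Ctr library (log2 0.60), and changed by 0.55 with the totals without the 3 heavy transcripts. Mylk, the myosin light chain kinase, had 6.74 RPKM in the Tgfb library and 11.2 RPKM in the Ctr library (log2 -0.66). Outside this list, Acta1, the skeletal muscle actin, had 14.6 RPKM in the Tgfb library and 5.33 RPKM in the Ctr library, a ratio of 2.74 (2.33 to 3.24). Actin genes are similar in sequence, and how reads that fit several of them were placed is not given in the sources used here.

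Adhesion genes rose more often: 7 of 24, with 1 that fell and a median of 0.32. Ncam1 (chr9:49502129-49799393), the neural cell adhesion molecule, had 45.1 RPKM in the Tgfb library and 10.7 RPKM in the Ctr library, a ratio of 4.21 (3.99 to 4.44). This was the largest increase among protein-coding genes of 5 RPKM or more. The integrin chains Itga5, Itgb3, Itga2 and Itgb5, which bind fibronectin, vitronectin or collagen with their partners, also rose. Itga5 had 130 RPKM in the Tgfb library and 67.1 RPKM in the Ctr library, a ratio of 1.93 (1.88 to 1.99). Itgb3 had 2.34 RPKM in the Tgfb library and 0.437 RPKM in the Ctr library, a ratio of 5.36 (4.11 to 7.07). Cdh11, a mesenchymal cadherin, had 25.1 RPKM in the Tgfb library and 11.4 RPKM in the Ctr library (log2 1.08), whereas Itga3, a laminin receptor chain, fell (log2 -0.77).

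Secreted growth factors formed the list with the largest share of genes that rose, 13 of 26, with 0 that fell and a median of 0.52. Vegfa, which drives vessel growth, had 39.0 RPKM in the Tgfb library and 11.9 RPKM in the Ctr library, a ratio of 3.29 (3.07 to 3.53). Pdgfa, a mitogen of fibroblasts, had 29.1 RPKM in the Tgfb library and 9.54 RPKM in the Ctr library, a ratio of 3.05 (2.74 to 3.41), read from a transcript with a non-coding accession. Vegfc and Pdgfb rose by log2 0.92 and 0.90. Vegfd, a lymphatic growth factor that is not in this list, had 7.69 RPKM in the Tgfb library and 19.1 RPKM in the Ctr library, a ratio of 0.403 (0.345 to 0.468). Of 25 growth factor receptors 2 rose and 2 fell, 16 lay below 0 and the median was -0.15. Of those that fell, Fgfr2 (log2 -0.58) lay just inside the limit under 4 other scalings (-0.57 to -0.58) and with its longest transcript (-0.58). Il1rl1, which encodes the interleukin-33 receptor ST2, had 61.3 RPKM in the Tgfb library and 25.9 RPKM in the Ctr library, a ratio of 2.36 (2.24 to 2.50). Lifr, the leukaemia inhibitory factor receptor, fell by log2 0.79.

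Of 13 CCN family and YAP-TEAD target genes 3 rose and 0 fell, all 3 of them CCN genes. Ccn4 had 37.7 RPKM in the Tgfb library and 10.5 RPKM in the Ctr library, a ratio of 3.58 (3.36 to 3.80), read from a transcript with a non-coding accession. Ccn5 lay at the limit (log2 0.58, or 0.53 with the totals without the 3 heavy transcripts), and Ccn1, a classical YAP target, changed by 0.32. In the Wnt list 3 of 14 rose, among them the ligand Wnt5a (3.88 RPKM in the Tgfb library and 1.89 RPKM in the Ctr library). In the Notch list, the ligand Jag1 and the target Hes1 rose by log2 1.15 and 0.64, and the receptor Notch3 had 2.84 RPKM in the Tgfb library and 5.69 RPKM in the Ctr library (log2 -0.80). Notch3 is also a mural cell marker, of which Cspg4 rose. The whole smooth muscle and mesothelial marker list summed to 81.5 RPKM in the Tgfb library and 70.7 RPKM in the Ctr library, but its members did not move together. Cspg4 had 28.9 RPKM in the Tgfb library and 13.2 RPKM in the Ctr library, and Actg2, Cnn1 and Myh11 were also higher in the Tgfb library. Msln, Notch3 and Des were lower there, Msln with 30.2 RPKM against 35.6 RPKM in the Ctr library. The part of such cells in these changes was not tested.

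**Figure D3:**
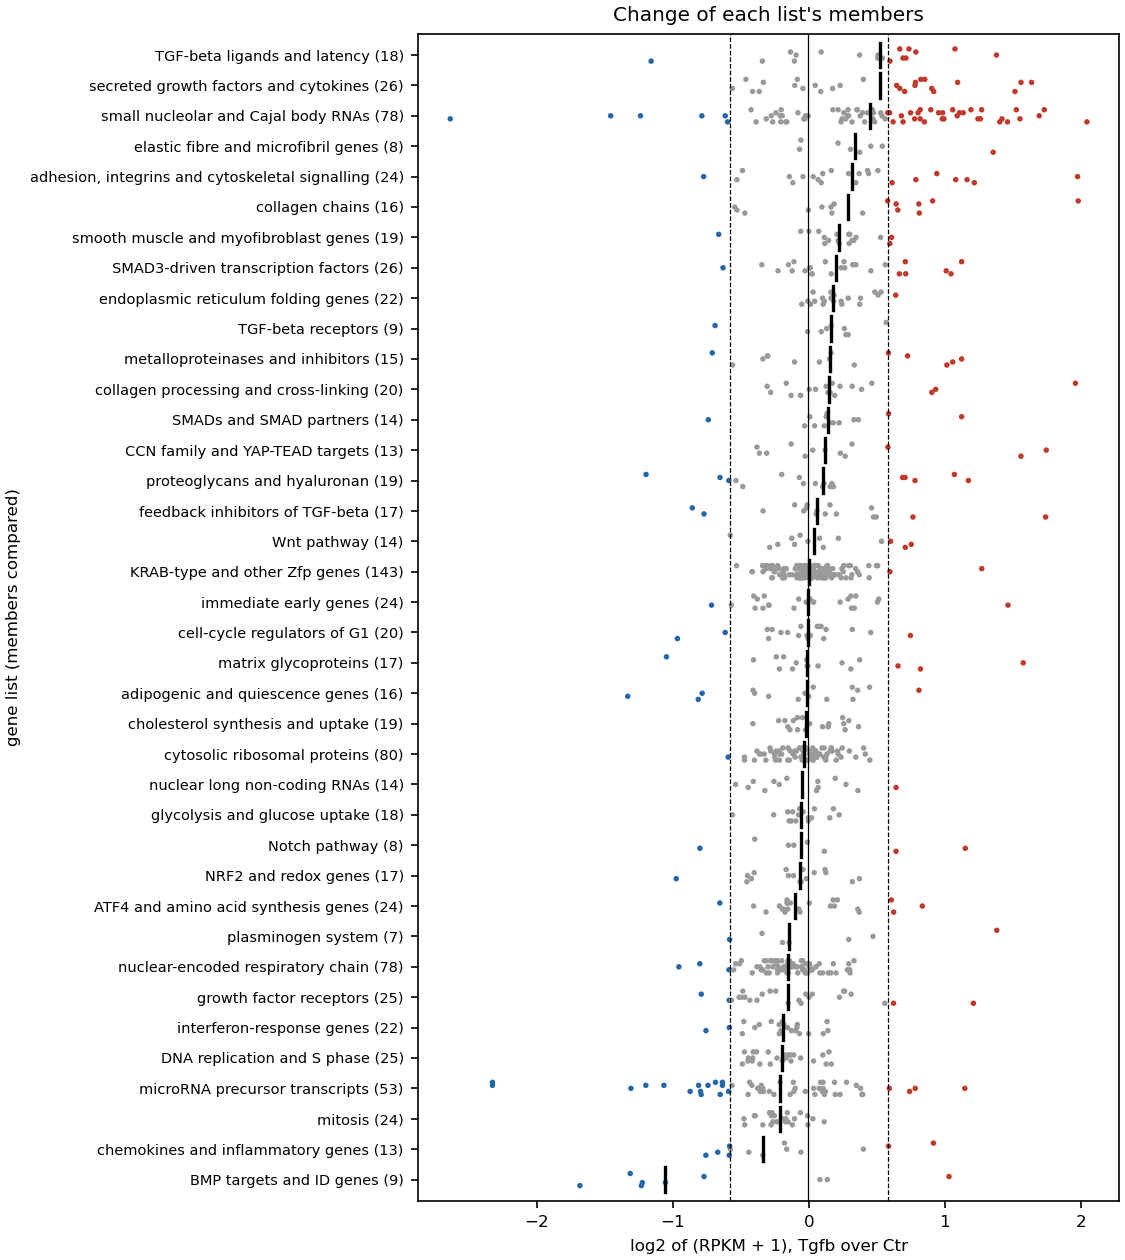
Log2 change (x axis, Tgfb over Ctr) of every compared member of lists with 7 or more such members, 1 row per list with its number of members, ordered by the median (thick bar). Red points are at 0.58 or more, blue at -0.58 or less. The ligand and growth factor lists have the highest medians (both 0.52) and the BMP and ID list the lowest (-1.05).

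The remaining protein-coding genes with the largest increases were mixed in function. Tnfrsf11b, osteoprotegerin, a decoy receptor of the bone-resorption ligand RANKL, had 9.28 RPKM in the Tgfb library and 2.50 RPKM in the Ctr library, a ratio of 3.71 (3.14 to 4.39). Spsb1, an adaptor of ubiquitin ligases, had 8.09 RPKM in the Tgfb library and 1.96 RPKM in the Ctr library, a ratio of 4.12 (3.46 to 4.94). Prag1, a pseudokinase, and Rflnb, a filamin-binding regulator of actin, rose by log2 1.35 and 1.32. Zfp469, Cgref1 and Ppp1r13l rose by log2 1.27, 1.24 and 1.23. The 20 protein-coding genes with the largest increases at 5 RPKM or more ranged from 1.21 to 1.98, each with 164 or more reads in either library. In the second pair, all 20 changed in the same direction, from 0.53 to 2.09, and 19 passed the limit, with Acta1 the exception.

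The 20 largest decreases at 5 RPKM or more ranged from log2 -1.67 to -1.06. Ly6c1, a GPI-anchored surface protein, had 10.4 RPKM in the Tgfb library and 35.2 RPKM in the Ctr library, a ratio of 0.295 (0.251 to 0.346). Ly6 genes are close paralogs, so the share of each is uncertain. Ramp3, which turns the calcitonin-like receptor into an adrenomedullin receptor, had 2.72 RPKM in the Tgfb library and 10.7 RPKM in the Ctr library, a ratio of 0.254 (0.195 to 0.328). The ligand gene Adm, adrenomedullin, fell with it, to 23.9 RPKM in the Tgfb library, against 53.0 RPKM in the Ctr library. Pkdcc (chr17:83215283-83225069), a secreted protein kinase, had 5.27 RPKM in the Tgfb library and 17.6 RPKM in the Ctr library, a ratio of 0.299 (0.261 to 0.340). Ephx1, microsomal epoxide hydrolase, was the most abundant gene among the 20 largest decreases, with 38.0 RPKM in the Tgfb library and 87.6 RPKM in the Ctr library. Rasl11a, Aqp1, Tinagl1, Septin4, Heg1, Amigo2, Xdh and Nrn1 fell by log2 1.06 to 1.64. Of these 20 genes 19 changed in the same direction in the second pair and 18 passed the limit there, and the exception in direction was Oxnad1, whose log2 change was -1.18 here and 0.34 there.

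CCAAT/enhancer factors of the adipogenic programme fell. Cebpd had 2.93 RPKM in the Tgfb library and 8.87 RPKM in the Ctr library, a ratio of 0.330 (0.273 to 0.397), and Cebpb had 40.6 RPKM in the Tgfb library and 72.1 RPKM in the Ctr library (log2 -0.81). Lpl, lipoprotein lipase, fell as well (log2 -0.78), whereas Fkbp5 rose (log2 0.81), so that 3 of 16 in the list fell and 1 rose. Chemokine and inflammatory genes leaned down, and of 13 compared 4 fell and 2 rose (median -0.34). Il1rn, the interleukin-1 receptor antagonist, had 7.69 RPKM in the Tgfb library and 13.7 RPKM in the Ctr library (log2 -0.76), and Tnfaip2 fell by log2 0.67. C3 and Nfkbia lay at -0.58 and passed the limit on the main scale but not under 4 other scalings. Ptgs2, cyclooxygenase-2, rose, with 25.5 RPKM in the Tgfb library and 13.1 RPKM in the Ctr library, a ratio of 1.96 (1.84 to 2.08).

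Interferon-response genes leaned down without many calls: 2 of 22 fell, 0 rose, 19 had changes below 0 and the median was -0.19. Ifit3 had 1.01 RPKM in the Tgfb library and 2.40 RPKM in the Ctr library, from 44 and 131 reads. The other gene that fell, Gbp2 (log2 -0.58), lay just inside the limit under 4 other scalings (-0.57 to -0.58). In the second pair Ifit3 stood at 15.6 RPKM with TGFB1 and 14.4 RPKM without it, above both libraries with control antagomiR. Proliferation genes gave a like picture. Of 25 genes of DNA replication 0 passed the limit in either direction, but 20 lay below 0, with a median of -0.19. Of 24 mitosis genes 0 passed it, 22 lay below 0 and the median was -0.21. Mcm2, a helicase subunit, had 45.5 RPKM in the Tgfb library and 59.7 RPKM in the Ctr library (log2 -0.38). Among 20 regulators of G1, Ccnd1, cyclin D1, had 27.9 RPKM in the Tgfb library and 55.4 RPKM in the Ctr library, a ratio of 0.504 (0.480 to 0.529), Cdkn1c fell at a low level and Gadd45a rose.

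Most genes of the housekeeping and metabolic lists stayed inside the limit, as did most genes compared, of which 2.68% rose and 2.92% fell. Of 18 glycolysis genes and 19 cholesterol synthesis genes 0 passed the limit, with medians of -0.05 and -0.02. Of 80 cytosolic ribosomal proteins 1 fell, Rps26, and the median was -0.03. Of 78 respiratory chain genes 3 fell, Ndufa12, Ndufc1 and Atp5k, with 59 of the 78 below 0 and a median of -0.15, and Atp5k (log2 -0.59) lay inside the limit under 3 other scalings (all -0.58). Of 22 endoplasmic reticulum folding genes 20 lay above 0 with a median of 0.18, and only Fkbp14, a collagen prolyl isomerase, rose (log2 0.64 from its main transcript and 0.56 from its longest). In the list of ATF4 targets and amino acid synthesis 3 of 24 rose and 1 fell. Pycr1, an enzyme of proline synthesis, was among the 3, but changed by 0.34 when its longest transcript stood for the gene. In the redox list 1 of 17 fell, Gstm1, a glutathione transferase of a multigene family, with 2.29 RPKM in the Tgfb library and 5.45 RPKM in the Ctr library. The 5 genes that the study selected as miR-9 targets stayed inside the limit, from -0.37 for Hdac7 to 0.31 for Zdhhc5. Ncl, Ep300 and Lzts2 changed by 0.26, 0.22 and -0.28. The counting intervals lay above 1 for Zdhhc5, Ncl and Ep300 and below 1 for Hdac7 and Lzts2. By qRT-PCR, another assay and with replicates, the study reports a significant increase after TGFB1 for all the selected targets it analysed. The single libraries here are no check of that result. Among 143 Zfp genes 2 rose and 0 fell.

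The long non-coding transcripts with the largest increases were Gm15270, Gm11149, 3300005D01Rik and 0610040F04Rik, and all but 3300005D01Rik overlap a protein-coding gene that rose. Gm15270 (chr10:24331688-24595803), with 95.3 RPKM in the Tgfb library and 29.4 RPKM in the Ctr library, overlaps Ccn2 by 362 nt. Gm11149 (chr9:49518288-49568025) lies within Ncam1 and had 115 reads in the Tgfb library and 27 in the Ctr library. These overlaps are of annotated ranges, and whether exons are shared was not examined. Reads on either strand would count for both members of a pair in any shared exon. The increases of Gm15270 and Gm11149 (log2 1.66 and 1.54) may therefore not be independent of those of Ccn2 and Ncam1. U90926 (chr5:92209895-92215408) fell most, with 7 reads in the Tgfb library and 69 in the Ctr library, a ratio of 0.128 (0.0494 to 0.277). Fam219aos, H2af-ps2 and E130310I04Rik were the other long non-coding transcripts with the largest decreases, from log2 -0.77 to -0.65, and E130310I04Rik, which overlaps Mylk, changed by -0.48 from its other transcript.

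Small RNAs held many of the changes. Of 78 small nucleolar and Cajal body RNAs, which guide ribosomal RNA modification or processing, 32 rose and 6 fell, with a median of 0.45. Snord15b (chr7:99479563-99479707), which lies within Rps3, had 638 RPKM in the Tgfb library and 197 RPKM in the Ctr library, from 2004 and 776 reads. Rps3 itself changed by log2 0.13. In the second pair Snord15b did not move, with 514 RPKM with TGFB1 and 518 RPKM without it. Snord65 had 0 reads in the Tgfb library and 8 in the Ctr library, and of the 32 that rose 12 passed the limit again in the second pair. Of 53 microRNA precursor transcripts 15 fell and 4 rose (median -0.21). The largest decreases there rested on few reads: Mir7676-1 and Mir7676-2, which shared all their counts, had 1 read in the Tgfb library and 13 in the Ctr library, and Mir6970 had 3 and 12. In all, 36 of the 255 genes that rose and 21 of the 278 that fell were transcripts under 200 nt, although 135 such transcripts were compared.

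The median change increased with transcript length, but the fifth with the shortest transcripts held the largest shares both of genes that fell and of genes that rose. In the fifth of genes with the shortest transcripts, up to 1449 nt, 6.45% fell and 3.62% rose, with a median of -0.08. In the fifth with the longest, from 4581 nt, 1.73% fell and 3.41% rose, with a median of 0.05. In the second pair the medians of these same gene sets were -0.04 and 0.22. Genes that fell had a median length of 1709 nt and those that rose 2721 nt, against 2706 nt for all genes compared. The part of length in the changes was not tested. Many of the matrix genes named above have long transcripts, among them Col7a1 (9129 nt) and Fbn1 (9832 nt).

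The second pair of libraries gave the same contrast in cells with the miR-9 antagomiR. It shares no sample with the first, differs from it by that antagomiR and is not a replicate. Of the 255 genes that rose with the control antagomiR, 240 changed upward in the second pair, 171 passed the limit and 1 passed it in the opposite direction, with a median of 0.72. Over all 9527 genes 7.13% rose there, 57.4% lay above 0 and the median was 0.06. Of the 278 genes that fell with the control antagomiR, 247 changed downward in the second pair, 108 passed the limit and 7 passed it in the opposite direction, with a median of -0.48. Over all genes 2.37% fell there. These counts and medians of the second pair depend on its library totals. The 3 heavy transcripts took 28.9% of the counts in the Tgfb_Mir9_LOF library and 34.1% in the Mir9_LOF library. Totals without them would lower each log2 change of this pair, and that scaling was not run for it. The Mir9_LOF library was also the smallest, with 14718397 counts. Among protein-coding genes of 5 RPKM or more, 123 of 124 that rose and 149 of 161 that fell kept their direction. Gpc1, a cell surface proteoglycan, rose in the first pair and not in the second, at 22.8 RPKM in the Tgfb library and 12.8 RPKM in the Ctr library, with 26.6 RPKM in the Tgfb_Mir9_LOF library and 26.1 RPKM in the Mir9_LOF library. Whether any gene responds differently in the 2 settings was not tested, for want of replicates.

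**Figure D4:**
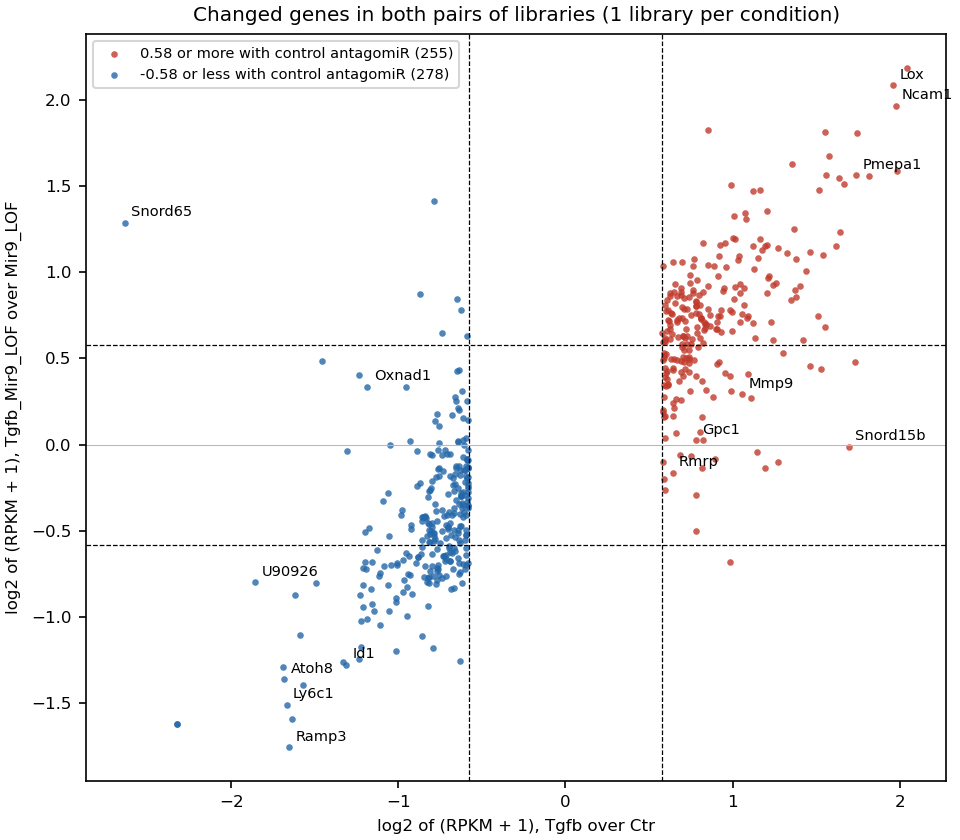
Log2 change with control antagomiR (x axis, Tgfb over Ctr) against the change with miR-9 antagomiR (y axis, Tgfb_Mir9_LOF over Mir9_LOF) for the 255 genes that rose (red) and the 278 that fell (blue), with dashed lines at 0.58 and -0.58 and 1 library per condition. Of the red points 240 lie above 0 and of the blue points 247 lie below 0, while Snord15b and Oxnad1 depart from this pattern.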

How the data were processed

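Total RNA libraries of MLg cells were used, 1 for each of 4 conditions, grouped by title. The authors sequenced single-end reads, trimmed them with Trimmomatic (version 0.36 in the submitters' processing notes), aligned them to mm10 with Bowtie2 and counted exon reads per RefSeq transcript with HOMER, on both strands and unadjusted; of Bowtie2 and HOMER the version is not given in the sources used here. The deposited counts are whole numbers. The deposited RPKM values, made by the authors with edgeR on totals of 21807187 (Tgfb) and 27416665 (Ctr), carry an added 1, which was subtracted. The authors' log2 fold change columns hold ratios to Ctr and were not used. Reads in exons shared by isoforms or overlapping genes count for each.

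Each symbol was represented by its transcript of highest mean RPKM, a mean of 1 RPKM or more was required, and log2 ratios used a pseudocount of 1 and the study's limit of 0.58. Intervals are exact 95% binomial intervals of counts. The calculation was tested on simulated data. Genes named are the 20 largest changes each way among protein-coding genes of 5 RPKM or more, up to 6 changed members of each of 44 lists, fixed TGF-beta and study-selected genes and the 4 non-coding transcripts that changed most in each direction (200 nt or more, 20 reads in either library). Smad2, Smad4, Col6a1, Col6a2, Ccn1, Itga3 and Has2 were added after their values were seen, and some genes that the rule names are not reported here. Members and lists were chosen with earlier results of these data known. With 1 library per condition no test was made, and an additive fit over all 4 libraries was not run. Alternatives changed pseudocount, filter, scaling, limit and transcript choice. Coordinates and promoters are from RefSeq (GRCm38.p6). Python 3.11 was used.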

Additional observations from a re-analysis of the deposited data

Results flagged for a closer look

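Of the named genes past the limit, 3 changed in the opposite direction with the miR-9 antagomiR and had both counting intervals beyond 1. These intervals rest on full library totals, and the difference between the settings was not tested. In the second pair Rn45s, Mir6236 and Lars2 took 28.9% of the counts with TGFB1 and 34.1% without it. Totals without these 3 transcripts would lower each ratio of that pair, and its intervals were not recomputed on them. The second interval of Ndufa12 began at 1.06. Ndufa12, a complex I subunit, changed by log2 -0.95 with control antagomiR (12.5 RPKM in the Tgfb library and 25.1 RPKM in the Ctr library) and by 0.33 with miR-9 antagomiR (16.0 RPKM in the Tgfb_Mir9_LOF library and 12.5 RPKM in the Mir9_LOF library). Oxnad1, an oxidoreductase-like gene, changed by -1.18 (8.13 RPKM in the Tgfb library and 19.8 RPKM in the Ctr library) and by 0.34 (25.9 RPKM in the Tgfb_Mir9_LOF library and 20.3 RPKM in the Mir9_LOF library). Rmrp, the RNA of RNase MRP, changed by 0.64 (814 RPKM in the Tgfb library and 521 RPKM in the Ctr library) and by -0.16 (637 RPKM in the Tgfb_Mir9_LOF library and 713 RPKM in the Mir9_LOF library).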

How the results depend on the processing

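With 1 library a condition there were no replicates to pair, and a fit over the 4 libraries with the antagomiR as a term was not run. The counts of genes that rose and fell, 255 and 278, were 396 and 460 with a pseudocount of 0.1, 109 and 97 with a pseudocount of 5, 156 and 171 with a mean of 5 RPKM or more, and 77 and 52 with a log2 limit of 1. The 9 further alternatives in scaling, filter, interval and transcript gave 217 to 269 genes that rose and 259 to 342 that fell. Among scalings the split moved most with library totals without Rn45s, Mir6236 and Lars2, to 217 and 342, or 61.2% lower against 52.2%. Limiting the comparison to transcripts of 200 nt or more (219 and 257) or to protein-coding genes (209 and 248), both chosen after seeing the data, stayed within 1.5 times. No called change of the 182 named genes turned its direction under the alternatives run. A pseudocount, filter, limit or interval cannot turn a direction, and the scalings shifted the Tgfb library by only -0.05 to 0.01 in log2. Only the transcript choice could therefore have turned a call, so this is a weak check. A pseudocount of 5 took 64 of 152 named calls below the limit, and library totals without the heavy transcripts took 12. The medians of the plasminogen, Wnt, Notch and adipogenic lists, all near 0, changed sign with a mean of 5 RPKM or more, and those of matrix glycoproteins, immediate early genes, nuclear non-coding RNAs and Zfp genes changed sign without a filter or with another scaling. Ratios of genes with few reads, as most small RNAs here, are limited by counting.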
